A study of Mus musculus with 2 samples.

Results

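The genes described here are 9 members of VEGF, angiopoietin and endoglin signalling, Vegfa, Flt1, Kdr, Tek, Tie1, Angpt1, Angpt2, Eng and Nos3, taken by symbol from the 30905 genes of the matrix. All 9 were found, each under 1 gene ID. Single-nucleus RNA was read from the cortex of wild-type C57BL/6 mice by the 10x Genomics Chromium method, in which a unique molecular identifier (UMI) marks each captured RNA molecule. The labels describe 2 samples, at 18 months and at 2 months of age, and each pooled 3 mice. Both sit in 1 matrix, where the barcodes carry the suffix 1 or 2. No label says which suffix belongs to which age, so libraries 1 and 2 stay without an age here, the matrix counts as 1 sample, and no test was made.

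Vegfa is a secreted growth factor that acts on endothelial cells through Kdr, the main signalling VEGF receptor, while Flt1 binds the same ligand tightly and signals weakly. Angpt1 activates the endothelial receptor Tek (Tie2), Angpt2 can oppose it, and Tie1 is a related receptor that modulates Tek. Eng (endoglin) is a co-receptor for BMP9 and TGF-beta ligands on endothelium, and Nos3 makes nitric oxide in endothelial cells. In the brain these genes are known for vessel growth, vessel stability and the permeability of the barrier.

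Library 1 held 58108297 UMIs over 8914 barcodes and library 2 held 60547146 over 8587, and 19 barcode sequences occurred in both. After filtering, 8286 and 7954 nuclei remained, of which 11.6% and 12.6% lay in clusters that were given no name. The 10 classes compared held at least 50 nuclei in each library. Endothelial nuclei numbered 157 in library 1 and 291 in library 2, mural nuclei (pericytes and smooth muscle) 62 and 83, fibroblasts 198 and 208, and astrocytes 444 and 429. Levels are UMIs of a gene per 1000000 UMIs of the class (CPM). Brackets after a level give exact 95% Poisson intervals. These cover counting error only, with each UMI taken as independent, and not differences between mice or between nuclei. The brackets after ratios have the same limit. All 9 endothelial marker genes were detected in the endothelial class, but the class was named from them. All 9 were also detected in excitatory neurons and fibroblasts of both libraries, so detection alone does not set the class apart.

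Promoters are shown for the 6 of the 9 genes that the RefSeq promoter table (GRCm38.p6) held, because 5 of these genes had their highest level in the same class of nuclei and Vegfa did not. Each line gives the 250 bases before the start that RefSeq gives, 5′ to 3′ on the gene's strand, with the letters GGAA or TTCC, which are the core of sites for ETS factors on either strand, in capitals. The windows lie at chr5:147726012-147726261 (minus strand) for Flt1, chr5:75978456-75978705 (minus strand) for Kdr, chr4:94739039-94739288 (plus strand) for Tek, chr4:118489850-118490099 (minus strand) for Tie1, chr2:32646345-32646594 (plus strand) for Eng and chr17:46032378-46032627 (minus strand) for Vegfa.
Flt1: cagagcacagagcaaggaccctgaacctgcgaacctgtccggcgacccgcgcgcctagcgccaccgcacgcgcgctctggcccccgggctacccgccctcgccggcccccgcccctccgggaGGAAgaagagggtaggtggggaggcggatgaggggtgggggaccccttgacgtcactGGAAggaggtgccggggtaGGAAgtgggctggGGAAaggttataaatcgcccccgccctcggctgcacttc
Kdr: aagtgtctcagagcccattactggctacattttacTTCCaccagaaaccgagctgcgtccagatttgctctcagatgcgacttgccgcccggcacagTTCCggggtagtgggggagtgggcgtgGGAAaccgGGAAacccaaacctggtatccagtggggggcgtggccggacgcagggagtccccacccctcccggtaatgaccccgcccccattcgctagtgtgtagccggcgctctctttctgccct
Tek: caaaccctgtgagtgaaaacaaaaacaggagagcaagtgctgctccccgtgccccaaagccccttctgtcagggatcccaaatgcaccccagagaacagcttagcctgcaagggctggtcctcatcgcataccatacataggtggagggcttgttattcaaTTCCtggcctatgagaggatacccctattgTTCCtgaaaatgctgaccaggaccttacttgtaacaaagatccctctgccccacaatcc
Tie1: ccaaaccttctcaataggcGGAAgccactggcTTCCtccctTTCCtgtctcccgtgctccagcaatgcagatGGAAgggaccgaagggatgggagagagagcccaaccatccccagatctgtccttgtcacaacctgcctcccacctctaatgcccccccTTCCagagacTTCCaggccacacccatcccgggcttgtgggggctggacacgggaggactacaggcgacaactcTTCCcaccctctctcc
Eng: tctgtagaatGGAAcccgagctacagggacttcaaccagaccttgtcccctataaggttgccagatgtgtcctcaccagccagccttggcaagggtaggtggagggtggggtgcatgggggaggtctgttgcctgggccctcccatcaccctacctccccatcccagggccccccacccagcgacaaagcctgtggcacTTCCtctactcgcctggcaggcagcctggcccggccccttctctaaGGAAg
Vegfa: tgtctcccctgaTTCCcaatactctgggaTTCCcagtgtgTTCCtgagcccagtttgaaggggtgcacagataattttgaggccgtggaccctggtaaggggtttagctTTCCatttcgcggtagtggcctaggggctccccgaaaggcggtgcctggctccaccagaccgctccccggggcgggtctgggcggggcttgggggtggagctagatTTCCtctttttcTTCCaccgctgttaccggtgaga
RefSeq and GENCODE starts differ, so by the GENCODE positions given below most of the Tie1 window and the last bases of the Kdr window lie inside the gene. The letters occurred 4 times in the windows of Flt1 and of Kdr, 2 times in Tek, 7 times in Tie1, 3 times in Eng and 6 times in Vegfa. Of the 32851 promoters in the table, 93.4% held at least 1 match and the median was 3 matches, so the presence of the letters does not set these genes apart.

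In both libraries, endothelial nuclei had the highest level of Flt1, Kdr, Tek, Tie1, Eng and Nos3 among the 10 classes. That is 6 of the 9 genes, whereas over all genes with at least 20 UMIs in the compared classes 15.2% in library 1 and 12.5% in library 2 were highest there. The median log2 ratio of the endothelial level to that of the other classes pooled was 4.79 and 4.75 for the 9 genes, beside -0.10 and -0.03 for all genes. Vegfa was highest in astrocytes, Angpt1 in mural nuclei, and Angpt2 in fibroblasts of library 1 and mural nuclei of library 2. Of all genes, 8.17% in library 1 and 8.68% in library 2 were highest in astrocytes, 16.4% and 15.7% in mural nuclei, and 13.6% of library 1 in fibroblasts.

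**Figure D1:**
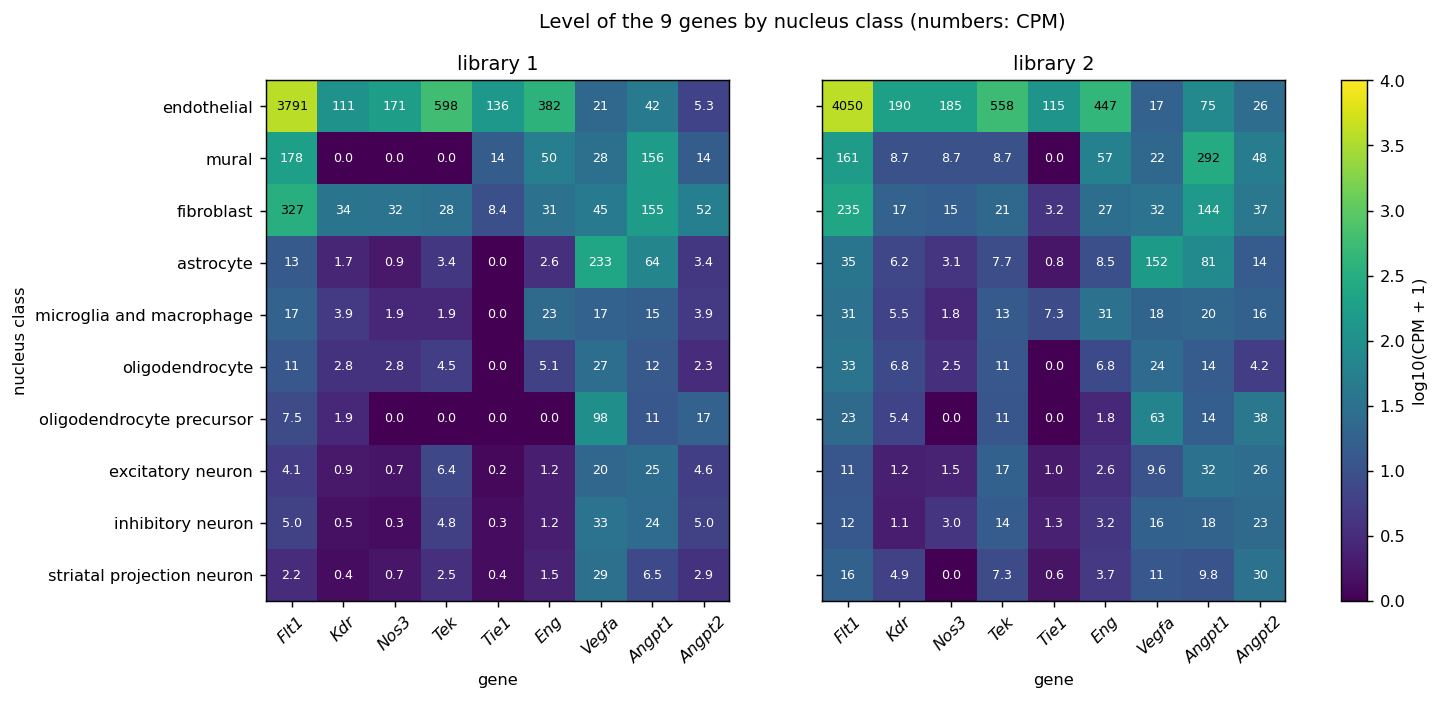
Level of the 9 genes in the 10 classes of nuclei, library 1 on the left and library 2 on the right; rows are classes, columns are genes, the colour is log10(CPM + 1) and the printed numbers are CPM. The top row, endothelial nuclei, holds the highest value of 6 genes in each library, and Vegfa is highest in the astrocyte row.

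Flt1 (chr5:147561604-147726011, minus strand, mm10) had 2154 UMIs in endothelial nuclei of library 1, 3791 CPM (3633 to 3955), and 4328 UMIs in library 2, 4050 CPM (3930 to 4172). Fibroblasts came next, with 327 CPM (286 to 371) in library 1 and 235 CPM (205 to 269) in library 2. The endothelial level was 11.6 times the fibroblast level in library 1 (10.1 to 13.3) and 17.2 times in library 2 (15.03 to 19.8). Mural nuclei followed with 178 and 161 CPM, and the other 7 classes lay between 2.18 and 35.4 CPM. Of endothelial nuclei, 97.5% and 96.6% had a Flt1 UMI.

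Kdr (chr5:75932827-75978458, minus strand) had 63 UMIs and 111 CPM (85.2 to 142) in endothelial nuclei of library 1, and 203 UMIs and 190 CPM (165 to 218) in those of library 2. These intervals do not overlap, so the counts of Kdr differed between the libraries by more than counting error. Kdr in fibroblasts was 33.8 CPM in library 1 and 17.0 CPM in library 2, and in mural nuclei it had 0 and 2 UMIs. A count of 0 there allows up to 21.3 CPM (3 counts).

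Tek (chr4:94739289-94874976, plus strand) had 340 UMIs and 598 CPM (537 to 666) in endothelial nuclei of library 1 and 596 UMIs and 558 CPM (514 to 604) in library 2. Its level in fibroblasts was 28.2 and 21.3 CPM, so the endothelial level was 21.3 times (13.5 to 35.2) and 26.2 times (16.8 to 43.2) the next class. Tie1 (chr4:118471191-118490061, minus strand) had 77 and 123 endothelial UMIs, 136 CPM (107 to 169) and 115 CPM (95.7 to 137), and at most 14.2 CPM in any other class. Both Tie receptors were thus low in mural nuclei, with 0 and 2 UMIs of Tek and 2 and 0 UMIs of Tie1.

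Eng (chr2:32646595-32682669, plus strand) had 217 UMIs and 382 CPM (333 to 436) in endothelial nuclei of library 1 and 478 UMIs and 447 CPM (408 to 489) in library 2. Mural nuclei held 49.8 and 56.6 CPM, and the endothelial level was 7.67 times (3.66 to 19.3) and 7.91 times (4.58 to 14.96) that level. Microglia and macrophages, taken as 1 class, held 23.2 and 31.0 CPM of Eng. Nos3 (chr5:24364810-24384474, plus strand) had 97 and 198 endothelial UMIs, 171 CPM (138 to 208) and 185 CPM (160 to 213). Nos3 in fibroblasts came next with 32.4 and 14.9 CPM. The Nos3 region is overlapped over 17423 of its 19665 bases by the antisense gene Gm15587, which had 227 UMIs in the whole matrix. Whether the counting used strand is not given in the sources used here, so it is not known whether reads of such pairs were told apart.

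The 6 receptor-side genes (Flt1, Kdr, Tek, Tie1, Eng and Nos3) were also counted in single nuclei. With each nucleus thinned to 1500 UMIs, 75.9% of endothelial nuclei in library 1 (68.1 to 82.6, exact binomial) and 81.4% in library 2 (76.3 to 85.8) held a UMI of at least 2 of the 6, against 4.57% and 3.40% of fibroblasts, 1.75% and 4.82% of mural nuclei, and 0.025% and 0.143% of excitatory neurons. Unthinned, the shares were 89.2% and 92.8% of endothelial nuclei, 8.08% and 6.25% of fibroblasts, 6.45% and 9.64% of mural nuclei, and 0.567% and 2.26% of excitatory neurons. The thinning left out 12 endothelial nuclei in each library and 1 excitatory neuron in each. The binomial intervals count nuclei within a library, which are not replicates, so they do not cover differences between mice or libraries.

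Within the endothelium the receptors were not evenly spread. A cluster led by Eln, Bmx and Mecom, called arterial-like from its arterial markers, held 18 nuclei in library 1 and 63 in library 2 and was set against the other endothelial nuclei (139 and 228). The 9 genes had been held out of the clustering. Kdr was lower in arterial-like nuclei, with 0 UMIs in library 1 and 5 UMIs, 24.8 CPM, in library 2. From so few nuclei, the count of 0 in library 1 allows up to 70.1 CPM (upper Poisson limit), so it does not show absence. Other endothelial nuclei had 63 UMIs, 122 CPM, in library 1 and 198 UMIs, 228 CPM, in library 2. Pooled over the libraries, the Kdr level in arterial-like nuclei was 0.10 times that in the other endothelial nuclei (0.03 to 0.25). Over all genes with at least 20 UMIs, 5.93% were lower and 5.2% were higher in arterial-like nuclei with intervals apart in the pooled counts, 3.92% and 4.12% in library 1, and 5.69% and 5.19% in library 2.

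Flt1 was also lower in arterial-like nuclei, but by less, with 2261 CPM against 3948 CPM in library 1 and 2720 CPM against 4359 CPM in library 2. The pooled ratio was 0.62 (0.58 to 0.68). Nos3 was higher, at 275 CPM in arterial-like nuclei and 163 CPM in other endothelial nuclei when the libraries were pooled (ratio 1.69, 1.28 to 2.22). That difference came from library 2, where Nos3 was 303 CPM in arterial-like and 158 CPM in other endothelial nuclei. In library 1 both stood at 171 CPM, with 9 arterial-like UMIs. Tek, Eng and Tie1 showed no common direction. Tek was 418 CPM in arterial-like against 617 CPM in other endothelial nuclei of library 1, and 740 against 515 CPM in library 2. Eng was 190 CPM in arterial-like against 402 CPM in other endothelial nuclei of library 1, from 10 and 207 UMIs, and 501 against 435 CPM in library 2. Pooled, the intervals of the levels of Tek, Eng and Tie1 overlapped between arterial-like and other endothelial nuclei. The pooled ratios were 1.22 (1.02 to 1.44) for Tek, 1.03 (0.84 to 1.27) for Eng and 1.24 (0.84 to 1.77) for Tie1. In library 2 alone the Tek levels had intervals apart (ratio 1.43, 1.18 to 1.73), and in library 1 the Eng ratio was 0.47 (0.22 to 0.89).

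**Figure D2:**
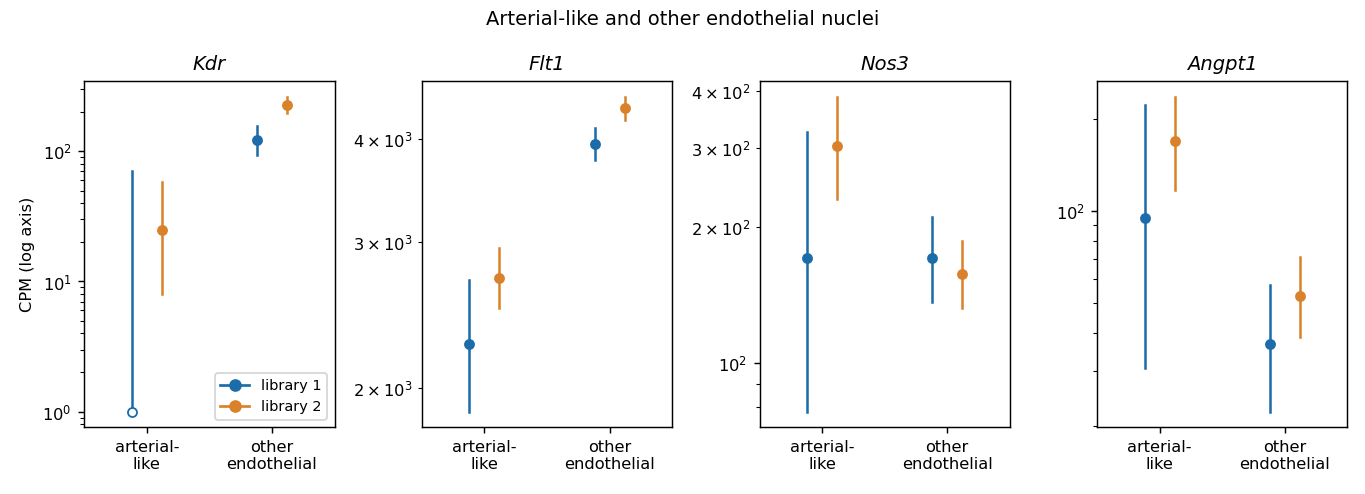
Kdr, Flt1, Nos3 and Angpt1 in arterial-like nuclei (left in each panel) and other endothelial nuclei (right), as CPM on a log axis; points are libraries 1 and 2, lines are exact 95% Poisson intervals, and the open point, drawn at 1 CPM, is a count of 0. Kdr and Flt1 are lower in arterial-like nuclei of both libraries, Angpt1 is higher in both, and Nos3 is higher in library 2 alone.

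Angpt1 was higher in arterial-like nuclei, at 94.98 CPM (5 UMIs) in library 1 and 169 CPM (34 UMIs) in library 2, against 36.9 CPM (19 UMIs) and 53.0 CPM (46 UMIs) in the other endothelial nuclei. The pooled ratio was 3.26 (2.14 to 4.93), and in library 1 alone the intervals overlapped. The 5 arterial-like UMIs of library 1 lay in 2 nuclei. A small endothelial sub-cluster of 12 nuclei led by Pde3a, Myh11, Lyz2 and Acta2, genes of other cell types, held 51 of the 104 endothelial Angpt1 UMIs. Smooth muscle markers summed to 421 CPM in arterial-like nuclei and 291 CPM in the others, and 6 and 7 of the 8 markers were detected. Pericyte markers summed to 173 CPM in arterial-like nuclei and 2576 CPM in the others, with 5 and 8 of 8 detected. Among nuclei without a UMI of any smooth muscle marker, Angpt1 was 150 CPM in arterial-like nuclei (13 UMIs, 79.9 to 257). In the others it was 6.99 CPM (6 UMIs, 2.57 to 15.2), and nuclei with pericyte marker UMIs were not left out here. Of those 13 UMIs 12 were in library 2, and in library 1 the 1 UMI gave 55.5 CPM (1.404 to 309) in arterial-like nuclei, against 8.28 CPM (1.71 to 24.2) in the others, so the intervals overlapped there. With nuclei left out that held UMIs of 2 or more mural or fibroblast markers, the pooled ratio was 15.7 (6.72 to 42.7) for Angpt1, 0.12 for Kdr, 0.65 for Flt1 and 1.56 for Nos3, a setting chosen after seeing the data.

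Sub-clusters of the endothelium, again found with the 9 genes held out, differed as well. A group of 60 nuclei led by Ndnf and Hmcn1, all of library 2, had the highest Kdr level, 355 CPM (283 to 441), and the highest Angpt2 level, 56.3 CPM from 13 UMIs. A group led by Hspb1 and Cdkn1a, with 38 nuclei of library 1 and 5 of library 2, had the highest Flt1 (5355 CPM), Tek (872 CPM) and Eng (648 CPM). A group led by Gm5127, Il1r1 and Dach2, in which 3 of the venous markers were highest, had 187 CPM of Kdr, 3108 CPM of Flt1 and 235 CPM of Eng. Where a group lies mostly in a single library, group and library cannot be told apart. Kdr and Angpt2 were also higher in library 2 over all endothelial nuclei. Another group, led by Atp13a5, Abcc9 and Grm3 (12 and 26 nuclei), held 6466 CPM of pericyte markers.

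Beyond endothelium, fibroblasts held the next level of Flt1, Kdr, Tek and Nos3, and this was uneven between their 2 clusters. In the cluster led by Ranbp3l, Slc6a20a and Ptgds, Flt1 was 527 CPM in library 1 and 440 CPM in library 2. In the cluster led by Bnc2 and Slc47a1 it was 17.9 and 31.9 CPM. In the first cluster 5 nuclei carried 55.9% and 64.6% of the Flt1 UMIs, and the endothelial markers there summed to 764 and 897 CPM, against 372 and 469 CPM in the second. Nuclei of the first cluster without a UMI of any endothelial marker still held Flt1, at 276 CPM (217 to 346) in library 1 and 141 CPM (91.1 to 208) in library 2. The part of endothelial RNA in the fibroblast values was not tested.

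Tek also appeared in neurons, at 6.40 CPM (5.59 to 7.29) from 227 UMIs in excitatory neurons of library 1 and 16.7 CPM (15.4 to 18.0) from 643 UMIs in those of library 2. That is 1.07% and 2.99% of its endothelial level, while the 9 endothelial markers stood at a median of 0.25% and 0.65% (highest 1.66% and 2.30%) and Flt1 at 0.11% and 0.27%. Together, excitatory neurons held 34.4% and 44.1% of the Tek UMIs of all kept nuclei, and they were the most numerous class. The endothelial markers summed to 16.5 and 42.8 CPM in these neurons, so they differed between the libraries in the same direction as Tek. Their part in the Tek level was not tested.

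In astrocytes, its highest class in both libraries, Vegfa (chr17:46016993-46032369, minus strand) reached 233 CPM (206 to 263) from 273 UMIs and 152 CPM (132 to 175) from 198 UMIs. Oligodendrocyte precursors were next with 98.1 CPM (73.3 to 129) and 63.0 CPM (43.9 to 87.6), and the astrocyte level was 2.38 times (1.76 to 3.26) and 2.42 times (1.68 to 3.57) theirs. The other 8 classes lay between 9.58 and 45.1 CPM, and endothelial nuclei had 21.1 and 16.8 CPM. By count of molecules, excitatory neurons still held 47.6% and 43.1% of the Vegfa UMIs of all kept nuclei and astrocytes 18.1% and 23.1%. Among neuron clusters of library 1, the interneurons led by Btbd11, Erbb4 and Kcnmb2 had the highest Vegfa level, 46.6 CPM (38.3 to 56.1), and they had 18.5 CPM in library 2. A choroid plexus cluster led by Otx2os1 and Ttr, with 23 and 13 nuclei, had 89.7 CPM from 10 UMIs and 54.5 CPM from 4 UMIs.

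Angpt1 (chr15:42424723-42676977, minus strand), the ligand that activates Tek, had its highest class level in mural nuclei, with 22 UMIs or 156 CPM (98.0 to 237) in library 1, and 67 UMIs or 292 CPM (226 to 370) in library 2. Fibroblasts followed with 155 CPM (127 to 187) and 144 CPM (121 to 170), so in library 1 the levels of mural nuclei and fibroblasts did not differ beyond counting error. Astrocytes had 64.1 and 81.5 CPM, and the levels of oligodendrocytes, precursors, microglia and striatal projection neurons were 6.53 to 20.1 CPM.

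Within the mural class the Angpt1 molecules lay in smooth muscle-like nuclei (33 nuclei led by Acta2, Pdlim5 and Myh11). They held 459 CPM from 18 UMIs in library 1 and 714 CPM from 55 UMIs in library 2. Pericyte-like nuclei, 112 in all, held 39.4 CPM from 4 UMIs and 78.5 CPM from 12 UMIs. The pooled ratio of smooth muscle-like to pericyte-like nuclei was 9.98 (5.76 to 18.4). When nuclei with a high doublet score were kept, a cluster with smooth muscle markers got no class name, and Angpt1 in the mural class was 33.8 CPM in library 1 and 64.2 CPM in library 2. Angpt2 had 7 UMIs, 60.2 CPM, in smooth muscle-like and 6 UMIs, 23.6 CPM, in pericyte-like nuclei, and the interval of their ratio was wide (0.74 to 9.20). Flt1 was 94.7 CPM in smooth muscle-like and 201 CPM in pericyte-like nuclei, and Eng was 25.8 and 66.9 CPM from 3 and 17 UMIs. Endothelial markers summed to 86.1 CPM in smooth muscle-like and 283 CPM in pericyte-like nuclei, and their part in these 2 values was not tested.

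Angpt1 was not confined to the vessel wall. An excitatory neuron cluster led by 9330185C12Rik, Plch1 and Ntng1 (95 and 85 nuclei) reached 255 CPM (224 to 289) from 239 UMIs and 315 CPM (278 to 356) from 257 UMIs, with Angpt1 held out of the clustering. In that cluster 48.4% and 54.1% of nuclei had an Angpt1 UMI, against 9.15% and 13.3% of all excitatory neurons. A cluster led by Col11a1 and Col24a1, left without a class name, had 81.9 and 135 CPM. Neurons led by Ndst4 and Dpyd had 45.8 and 45.1 CPM, and the interneurons led by Adarb2 and Vip 54.7 and 29.5 CPM. Excitatory neurons as a whole stood at 24.7 and 31.6 CPM.

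**Figure D3:**
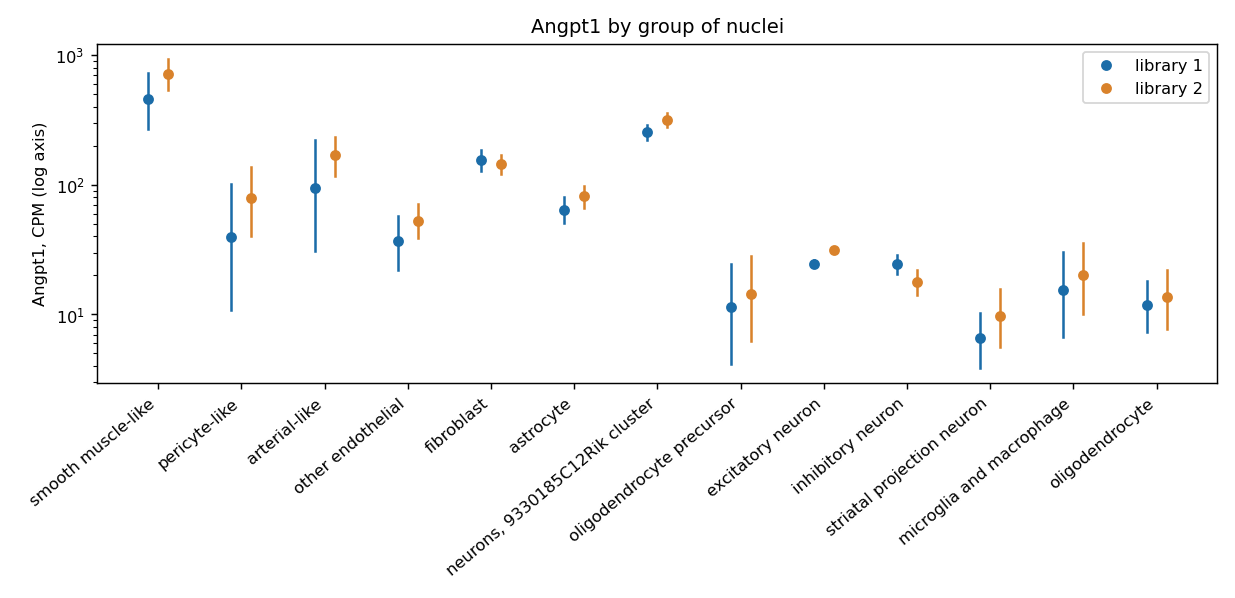
Angpt1 level in CPM on a log axis in 13 groups of nuclei; points are libraries 1 and 2 and lines are exact 95% Poisson intervals. Smooth muscle-like nuclei have the highest values, 459 and 714 CPM, and the neuron cluster led by 9330185C12Rik follows with 255 and 315 CPM; that cluster is also part of the excitatory neurons plotted.

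Angpt2 (chr8:18690263-18741562, minus strand), which can oppose Angpt1 at Tek, had at most 52.1 CPM in any class. In fibroblasts its 37 UMIs gave 52.1 CPM (36.7 to 71.8) in library 1, and 35 UMIs gave 37.3 CPM (26.0 to 51.8) in library 2. Mural nuclei held 14.2 CPM from 2 UMIs and 47.9 CPM from 11 UMIs, and oligodendrocyte precursors 17.0 CPM from 9 UMIs and 37.8 CPM from 21 UMIs. Among fibroblasts of library 1, 36 of the 37 UMIs were in the cluster led by Ranbp3l, and with high doublet scores kept that cluster had no class name and the fibroblast level was 2.45 CPM. The order of the highest classes in library 2 is within counting error, since the intervals of mural nuclei, precursors and fibroblasts overlap.

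Angpt2 and Vegfa differed in opposite directions between the libraries in neurons, and not in neurons alone. Of the 10 classes, 9 had the higher Angpt2 value in library 2 and 9 the higher Vegfa value in library 1. The intervals were apart in that direction in 4 classes for each gene. In excitatory neurons Angpt2 was 26.4 CPM (24.8 to 28.0) in library 2, from 1015 UMIs, and 4.62 CPM (3.94 to 5.39) in library 1, from 164 UMIs. In striatal projection neurons it was 29.9 CPM in library 2 and 2.90 CPM in library 1, and in inhibitory neurons 23.4 and 5.0 CPM in the same order. All 15 neuron clusters had the higher Angpt2 value in library 2 (15.6 to 29.9 CPM there, 2.71 to 6.76 CPM in library 1). The share of all genes with the same direction in all 15 clusters was not counted. Flt1, Tek and Eng were higher in library 2 in all 15 clusters too, as was the sum of endothelial markers in excitatory neurons given above. Their part in the Angpt2 difference was not tested. The gene body of Angpt2 lies wholly inside Mcph1, on the other strand, and Mcph1 was 75.3 CPM in excitatory neurons of library 2 and 82.3 CPM in those of library 1. In endothelial nuclei Angpt2 had 28 UMIs, 26.2 CPM (17.4 to 37.9), in library 2 and 3 UMIs, 5.28 CPM (1.09 to 15.4), in library 1.

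Vegfa was lower in library 2, with 9.58 CPM (8.63 to 10.6) in its excitatory neurons and 20.2 CPM (18.8 to 21.8) in those of library 1. All 15 neuron clusters had the lower Vegfa value in library 2, again without a share over all genes, and so did the astrocytes given above. Over all genes with at least 20 UMIs in excitatory neurons, 16% were higher in library 2 and 42.6% were lower with intervals apart. Differences beyond counting error were thus common there. These shares count differences of any size, so they do not show how common differences as large as those of Vegfa and Angpt2 were. The shares higher and lower in library 2 were 8.81% and 20% in inhibitory neurons and 5.66% and 12.2% in striatal projection neurons, and 6.36% were lower in astrocytes. In endothelial nuclei 4.83% of genes were higher in library 2 and 6.09% lower, and of the 9 genes Kdr and Angpt2 were higher. The libraries have no replicate, and mice, handling and age cannot be told apart in these differences.

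**Figure D4:**
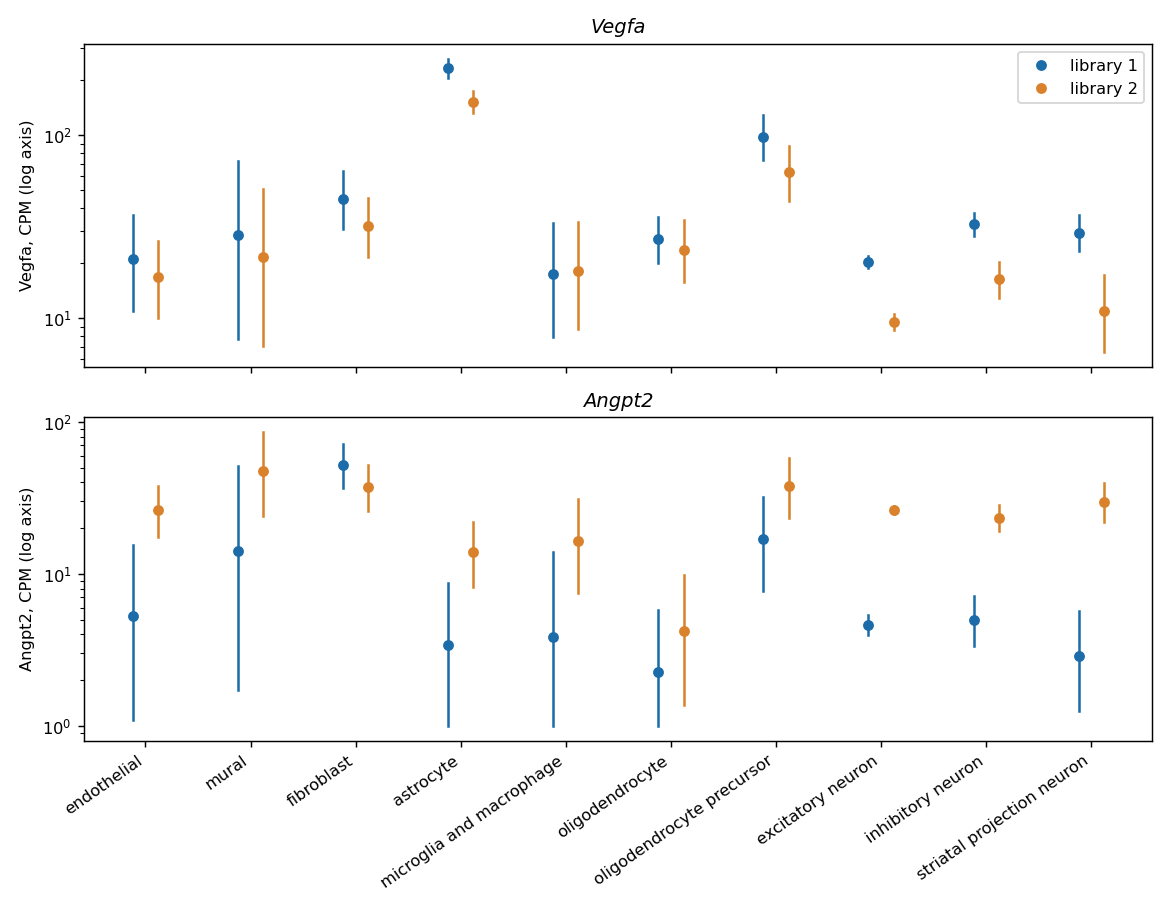
Vegfa (top) and Angpt2 (bottom) in the 10 classes as CPM on a log axis; points are libraries 1 and 2 and lines are exact 95% Poisson intervals, cut off at 1 CPM. Vegfa stands highest in astrocytes, and Angpt2 in the 3 neuron classes lies at 23.4 to 29.9 CPM in library 2 and 2.90 to 5.0 CPM in library 1.

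The other genes of these pathways came from 6 lists of 86 symbols, and 83 of them were in the matrix. In library 1, 32 of 78 measured genes were highest in endothelial nuclei, and in library 2, 25 of 79, with 22 in both, against the 15.2% and 12.5% of all genes. Among the other VEGF ligands and receptors, Vegfc, a ligand of Flt4, stood at 130 CPM in endothelial nuclei of library 1 and 407 CPM in library 2. Vegfd and Flt4 were also highest there in both libraries, so 3 of 7 measured genes of this list in library 1 and 4 of 7 in library 2 were. Nrp1, a VEGF co-receptor, had 194 and 406 CPM in endothelial nuclei, and its highest class in library 1 was fibroblasts. Nrp2 was highest in fibroblasts, with 149 and 134 CPM.

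Genes acting on Tie signalling included Ptprb, the endothelial phosphatase that acts on Tek, with 1141 CPM in library 1 and 1666 CPM in library 2 of endothelial nuclei. Klf2, a flow-responsive factor, had 774 and 375 CPM there. Of this list, 4 of 9 measured genes in library 1 and 4 of 10 in library 2 were highest in endothelium. Itgb1, an integrin chain, was highest in mural nuclei (505 and 361 CPM). Of the 17 genes of VEGF receptor signalling, 6 in library 1 and 4 in library 2 were highest in endothelium, among them Dll4, Notch1 and Plcg1 in both. Prkca had 631 and 646 CPM and Ptk2 681 and 588 CPM in excitatory neurons, and in library 2 the highest class was oligodendrocyte precursors for Prkca and oligodendrocytes for Ptk2.

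On the endoglin side, Acvrl1, which forms the receptor complex with Eng, and Bmpr2 (797 and 747 CPM), Id1, Smad5 and Smad6 were highest in endothelial nuclei in both libraries. Of the 19 measured genes of this list, 8 in library 1 and 6 in library 2 were highest there. Bmp6 was highest in fibroblasts (1139 and 1022 CPM) and Tgfbr1 in microglia and macrophages (922 and 1274 CPM). In the nitric oxide list, Nostrin, which binds Nos3, had 444 and 505 CPM in endothelium, while the downstream genes Prkg1 (4920 and 5187 CPM) and Gucy1a2 (818 and 953 CPM) were highest in mural nuclei. Of the 13 measured nitric oxide genes, 5 in library 1 and 4 in library 2 were highest in endothelium, and of the 13 hypoxia genes 6 and 3 were. In the hypoxia list Epas1 (991 and 792 CPM) and Slc2a1 (1486 and 1137 CPM) were highest in endothelium, and Ppargc1a, known in muscle as an inducer of Vegfa, in astrocytes (228 and 189 CPM), the class in which Vegfa was highest.

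Over the 27 clusters of at least 50 nuclei, the gene whose log2(CPM + 1) pattern was most like that of Flt1 was Slco1a4 (Pearson r = 0.99). For Eng it was Notch4 (r = 0.97), for Nos3 and Tie1 it was Adgrl4 (0.97 and 0.95), for Kdr it was Bsg (0.94) and for Tek it was Sgms1 (0.94). The next in order were Pltp and Vwf for Flt1, Adgrf5 and Gimap6 for Eng, Ccm2l and 4930578C19Rik for Nos3, Cd93 and She for Tie1, Pltp and Polk for Kdr, and Ly75 and Nxpe2 for Tek. Vegfa was most like Cyp2j9 (0.89), followed by Scrg1 and Ednrb. Angpt1 and Angpt2 had no close match, with Camk2d at 0.77 (then Fbxl12 and Pawr) and Anxa6 at 0.76 (then Gon4l and Gm30624). These values are the highest among 13372 candidate genes, over clusters that share 2 libraries and differ in depth. Of the clusters 2 are endothelial, and their weight in the values for Flt1, Kdr, Tek, Tie1, Eng and Nos3 was not tested. Slco1a4 and Adgrl4 are also among the markers from which the endothelial class was named.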

How the data were processed

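The values are UMI counts as the authors deposited them, not normalized. The file headers name Cell Ranger 3.1.0, whereas the submitters' processing notes name Cell Ranger 2.0.1, Seurat 3.1, R 4.0.2 and mm10, and this conflict was not settled. The treatment of introns and strand is not given in the sources used here. Nuclei with at least 200 genes, at most 5% mitochondrial UMIs and a Scrublet score under 0.2 were kept. The automatic doublet threshold marked 0 and 2 barcodes and had not worked. A score of 0.2 or more marked 305 and 332. Scanpy 1.11.5 scaled nuclei to 10000 UMIs, took 2000 variable genes without the 9 genes and the pathway lists, 30 principal components and 15 neighbours, and clustered at Leiden resolution 1. Clusters were named from marker lists. Levels are CPM of UMIs summed per class with exact Poisson intervals, and ratios have exact conditional intervals. The interval code was tested on simulated data. Depth is the library totals given above. Gene positions are from GENCODE vM21 (mm10), in which 30766 of the 30905 gene IDs were found. Named genes are all 9 members, the 3 genes of each pathway list with the highest CPM in any compared class over both libraries, and, for each member with at least 50 UMIs, the 3 genes with at least 200 UMIs whose log2(CPM + 1) over clusters of at least 50 nuclei had the highest Pearson r with it. Other pathway genes named as highest in endothelium in both libraries, and clusters singled out, were chosen after their values were seen. The values of 1 gene that the rule names are not reported here. The members and lists were chosen with earlier results of these data known, and so were the naming thresholds. Because the samples could not be told apart, no test and no comparison of ages was made.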

Additional observations from a re-analysis of the deposited data

How the results depend on the processing

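The count of the 9 genes with their highest level in endothelial nuclei was 6 in both libraries under all settings that gave one: doublets kept, Leiden resolution 2, thinning to 1500 UMIs, a mean over nuclei, nuclei with other vessel wall RNA left out, and no minimum of UMIs. The pathway count ranged from 24 to 34 in library 1 and from 25 to 28 in library 2. With a mitochondrial limit of 1%, no cluster was named endothelial, fibroblast or oligodendrocyte precursor, and neither count could be given. Mural nuclei then numbered 12 in library 1 and 21 in library 2. With doublets kept, the cluster led by Slc6a20a and Ranbp3l also held smooth muscle markers and got no class name, and Angpt1 in the mural class that remained was 33.8 CPM in library 1 and 64.2 CPM in library 2. Leaving out nuclei with other vessel wall RNA lowered endothelial Kdr to 82.4 and 136 CPM. It left the ratio of Kdr between arterial-like and other endothelial nuclei at 0.12 and raised that of Angpt1 to 15.7 (6.72 to 42.7), with 28 and 7 UMIs. Thinning gave 6.95 for that Angpt1 ratio and the mean over nuclei 6.05. These ratio alternatives were chosen after seeing the data. Of 95 recomputed levels of the 9 genes in their highest class, 27 lay outside the counting interval. None of the ratios recomputed (Kdr, Flt1, Nos3 and Angpt1 in arterial-like nuclei, Angpt1 and Flt1 in smooth muscle-like nuclei) changed direction, but in library 1 alone that of Nos3 was 1.00 (0.44 to 1.99). The ratios of Tek and Eng, which had opposite directions in the 2 libraries, were not recomputed under the other settings. No paired analysis was possible because no result came from a test and each age has 1 sample. Depth limits values from few UMIs, such as those of Kdr, Tek, Tie1 and Nos3 in mural nuclei, with 0 to 2 UMIs in each library.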
